A study of Sus scrofa with 15 samples.

Results

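A set of 10 genes of triglyceride synthesis and of the lipid droplet were followed in the liver of LPS-treated and control piglets. The set holds *GPAM*, *AGPAT2*, *LPIN1*, *LPIN2*, *DGAT1*, *DGAT2*, *PNPLA2*, *PNPLA3*, *PLIN2* and *CIDEC*, and each was found in the count table by its pig Ensembl symbol, which gave 10 of 31908 genes and 10 of the 15029 genes with a symbol. The set was chosen from measured values, because *DGAT2* was lower in every LPS library than in every CON library, so the LPS against CON values of the 10 genes are a description and support nothing by themselves. Where the fits over all genes called some of them, the calls are printed beside the share called among all genes. All 10 passed the filter on low counts, which kept 12774 genes.

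The animals were male piglets of a Duroc x Large White x Landrace cross in the growing stage, with no age in the labels. The LPS group received lipopolysaccharide, the endotoxin of Gram-negative bacteria, at 80 μg/kg by intraperitoneal injection, and the CON group received sterile saline. The liver was taken 4 h later. Each group had 3 libraries of sonicated polyadenylated RNA, the input set aside before the m6A antibody step. Values are CPM, the count of a gene scaled to its library's total after TMM adjustment, and within a group they are given in the order of replicates 1, 2 and 3. Log2 fold changes come from edgeR's quasi-likelihood fit over all tested genes. A gene was called when its Benjamini-Hochberg adjusted p was below 0.05 and its fold change above 1.5. Whole liver was sequenced, so fewer cells of a type and less RNA per cell cannot be told apart.

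Triglyceride is built on glycerol 3-phosphate, to which fatty acids are added as acyl-CoA one at a time. GPAM adds the first, AGPAT2 adds the next and makes phosphatidic acid, the lipins LPIN1 and LPIN2 remove its phosphate to give diacylglycerol, and DGAT1 or DGAT2 adds the last. The product is stored in droplets that carry coat proteins such as PLIN2 and CIDEC, and lipases such as PNPLA2 take it apart again, so a hepatocyte's store depends on both arms.

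Before the values, the state of the libraries is given. Total counts lay between 5927348 and 10351491 in the CON group and between 4348478 and 19967417 in the LPS group, so counting error is largest in LPS replicate 1 and smallest in LPS replicate 3. The TMM factor of LPS replicate 3 was 0.735, against 0.979 to 1.114 in the others. By the correlation of log2 CPM across genes, LPS replicate 2 was nearer to the CON libraries than to its own group. It had 0.923 to 0.945 with the CON libraries and 0.907 and 0.852 with LPS replicates 1 and 3. Between LPS replicates 1 and 3 the correlation was 0.903. Where the groups overlap in 1 of the 10 genes through LPS replicate 2 alone, the gene's value without that library is given as well. The 12 hepatocyte markers were all detected, with a summed level of 74382 to 92856 CPM in the CON group and 61828 to 124091 CPM in the LPS group. The acute-phase gene *FGB* gave 8098 to 12715 CPM of the sum in the CON group and 14561 to 44960 CPM in the LPS group. *SERPINA1* had at most 7.20 CPM in any library. The sum is thus no measure of the share of hepatocytes. The labels name no batch.

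Compared with the CON group, *DGAT2* had the lowest fitted level relative to control of the 10 genes, and *CIDEC* and *GPAM* came next. *LPIN2*, *AGPAT2* and *PNPLA3* had higher means in the LPS group, but their libraries overlapped between the groups. The means of *DGAT1*, *LPIN1*, *PNPLA2* and *PLIN2* differed by less than the SD of the LPS group, as did those of *AGPAT2* and *LPIN2*. Of other enzymes of the same steps as *GPAM* and *DGAT2*, *GPAT4* and *DGAT1* had log2 fold changes of 0.06 and -0.09. *GPAT3*, of the same step as *GPAM*, had 1.58 (standard error 0.65).

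**Figure D1:**
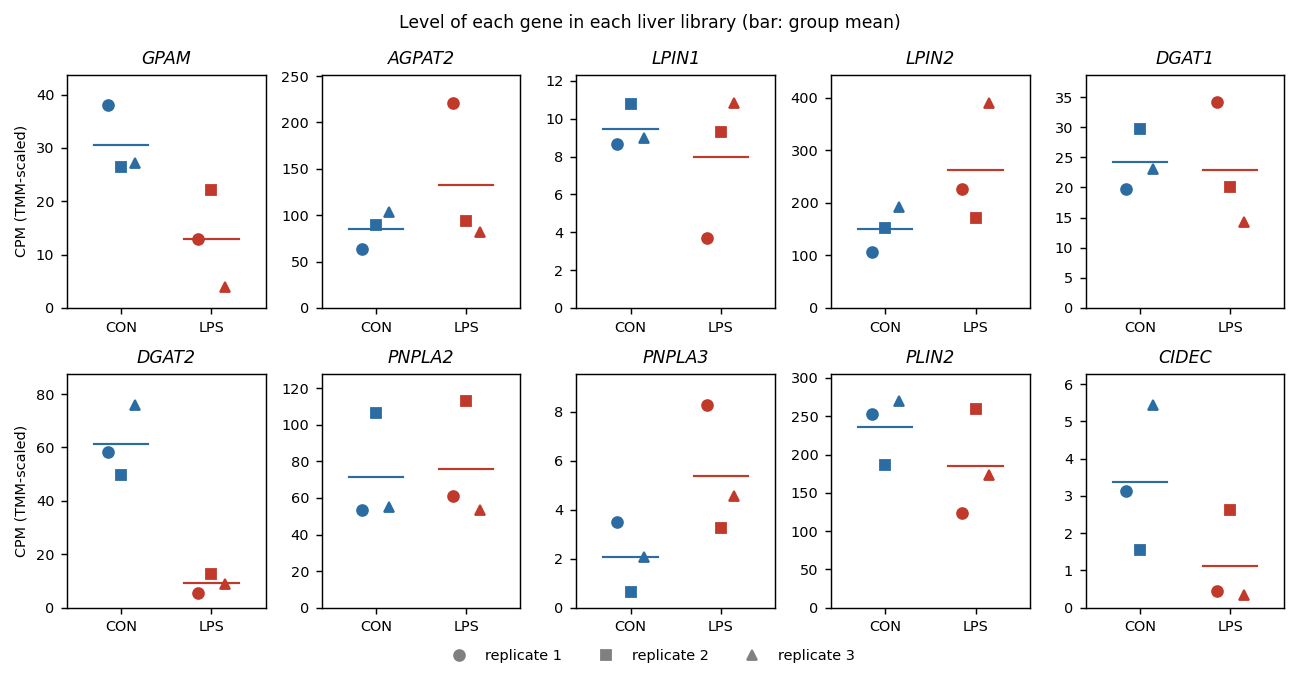
Level of each gene in CPM (vertical axis, from 0, a scale of its own for each gene) in the CON (blue) and LPS (red) libraries. Each symbol is 1 library, its shape gives the replicate number and the bar is the group mean. In *DGAT2* and *GPAM* all 3 LPS libraries lie below all 3 CON libraries, and in the other 8 genes the groups overlap.

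*GPAM* (ENSSSCG00000010631, chromosome 14 from 122538600 to 122724131, minus strand) encodes the mitochondrial glycerol 3-phosphate acyltransferase. It had 38.1, 26.4 and 27.2 CPM in the CON group and 12.9, 22.1 and 3.89 CPM in the LPS group. All LPS libraries lay below all CON libraries, with LPS replicate 2 just under the control range and LPS replicate 3 far below it. The log2 fold change was -1.26 (standard error 0.54), and it lay between -1.92 and -0.78 when each library was left out in turn. Coordinates here and below are those of the deposited table, and the sources used here do not give its genome build.

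*AGPAT2* (ENSSSCG00000040845), whose product makes phosphatidic acid, lies on the unplaced scaffold AEMK02000682.1 from 936921 to 1106715. Its values were 63.6, 89.0 and 103.4 CPM in the CON group and 221, 94.1 and 82.2 CPM in the LPS group. Only LPS replicate 1 stood above the CON libraries. The log2 fold change of 0.63 (standard error 0.43) was 0.06 without that library. The annotated span holds 16 other genes, and 1.84% of the exon bases of *AGPAT2* are shared with *SSNA1*.

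*LPIN1* (ENSSSCG00000008624, chromosome 3 from 124940548 to 125074123, minus strand) had 8.67, 10.8 and 8.998 CPM in the CON group and 3.71, 9.32 and 10.9 CPM in the LPS group. LPS replicate 1 alone was low, on 17 counts, and the log2 fold change was -0.23 (standard error 0.42). Leaving out 1 library in turn gave values from -0.50 to 0.11, so the sign was not fixed.

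*LPIN2* (ENSSSCG00000038494, chromosome 6 from 103578549 to 103728151), the more abundant lipin in these livers, had 106, 152 and 192 CPM in the CON group. The LPS libraries had 226, 172 and 389 CPM, and replicate 2 lay within the control range. Its log2 fold change was 0.81 (standard error 0.39), with 0.42 to 1.05 over the fits that left out a library and 1.04 without LPS replicate 2. Of its exon bases 11% are shared with *MYOM1* on the same strand, which had at most 4.91 CPM in any library.

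*DGAT1* and *DGAT2* both join the last fatty acid to diacylglycerol, and they are unrelated in protein sequence. *DGAT2* (ENSSSCG00000034102, chromosome 9 from 10032127 to 10068464, plus strand) had 58.4, 49.7 and 75.9 CPM in the CON group. The LPS libraries had 5.67, 12.8 and 8.81 CPM, from 26, 78 and 129 counts. The highest LPS library was thus far below the lowest CON library, and the groups did not overlap. The exact 95% Poisson intervals, which cover counting error only, reached at most 15.9 CPM in the LPS group and at least 44.4 CPM in the CON group. Group levels were 61.4 ± 13.4 and 9.08 ± 3.55 CPM (mean ± SD, n = 3 each), and the log2 fold change was -2.75 (standard error 0.38), a fitted level 6.73-fold lower. Among the 12774 tested genes 14 had a more negative log2 fold change. It stayed between -3.05 and -2.51 when each library was left out in turn and between -2.85 and -2.72 under the other scalings, filters and tools. No other gene in the table overlaps *DGAT2*.

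*DGAT1* (ENSSSCG00000005918, chromosome 4 from 452861 to 466883, plus strand) had 19.8, 29.7 and 23.1 CPM in the CON group and 34.2, 20.1 and 14.2 CPM in the LPS group. The LPS libraries lay on both sides of the controls, and the log2 fold change was -0.09 (standard error 0.38), from -0.49 to 0.18 with 1 library left out. This value is uncertain, because 54.5% of the exon bases of *DGAT1* (2017 of 3700) are also exon bases of *HSF1* on the opposite strand, and the sources used here do not give the strand setting of the counting. *HSF1*, a heat shock transcription factor, had 44.9, 45.3 and 63.3 CPM in the CON group and 80.7, 58.6 and 93.7 CPM in the LPS group, a log2 fold change of 0.60 (edgeR adjusted p = 0.473).

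Among the tested genes, those nearest to *DGAT2* on either side had other values. *UVRAG*, an autophagy gene 20334 bases to its right, had a log2 fold change of -0.30 (edgeR adjusted p = 0.755), and *SERPINH1*, a collagen chaperone 237644 bases to its left, one of 1.08 (edgeR adjusted p = 0.267). The nearest tested gene outside the span of *GPAM*, at a distance of 52999 bases, was *ACSL5*. Its log2 fold change was 0.29 (edgeR adjusted p = 0.834).

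On the breakdown side, *PNPLA2* (ENSSSCG00000012841, chromosome 2 from 513076 to 518187) encodes adipose triglyceride lipase, which removes the first fatty acid from stored triglyceride. It had 53.4, 106 and 54.9 CPM in the CON group and 61.0, 113 and 53.4 CPM in the LPS group. One library was high in each group, replicate 2 in both, and the rest were alike. The log2 fold change was 0.08 (standard error 0.41), with a range from -0.32 to 0.48 when a library was left out.

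*PNPLA3* (ENSSSCG00000027266, chromosome 5 from 5075622 to 5092515), a relative of that lipase on the droplet, is best known for its link to fatty liver in people. Its counts were low, at 39, 4 and 21 in the CON group and 38, 20 and 67 in the LPS group. These gave 3.48, 0.625 and 2.08 CPM against 8.29, 3.27 and 4.57 CPM, and LPS replicate 2 lay under the highest control. The log2 fold change was 1.32 (standard error 0.61), from 0.91 to 1.91 with 1 library left out and 1.56 without LPS replicate 2.

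*PLIN2* (ENSSSCG00000035863, chromosome 1 from 203683862 to 203709274) encodes the main droplet coat protein of the hepatocyte. It had 253, 186 and 269.8 CPM in the CON group and 124, 259.6 and 173 CPM in the LPS group. LPS replicate 2 was among the controls and the other LPS libraries were below them. The log2 fold change was -0.35 (standard error 0.36) with all libraries and -0.66 without LPS replicate 2.

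*CIDEC* (ENSSSCG00000011557, chromosome 13 from 66141838 to 66149703), which enlarges droplets by lipid transfer between them, had 3.13, 1.56 and 5.44 CPM in the CON group. LPS replicates 1 and 3 had 0.436 and 0.341 CPM, from 2 and 5 counts, whereas LPS replicate 2 had 2.62 CPM from 16 counts. The groups therefore overlapped through LPS replicate 2 alone. The log2 fold change was -1.65 (standard error 0.81) with all libraries and -3.15 without LPS replicate 2. The exact 95% Poisson intervals of LPS replicate 1 and CON replicate 2, from 0.0528 to 1.58 and from 0.749 to 2.87 CPM, overlap.

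**Figure D2:**
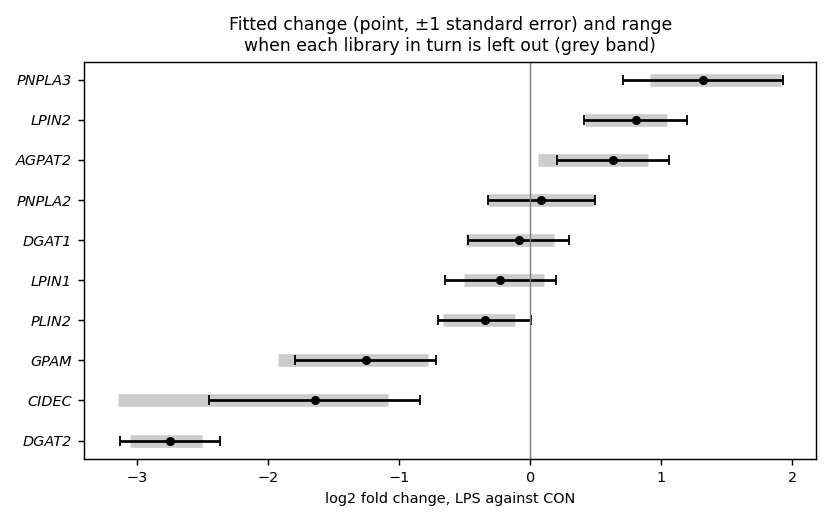
Log2 fold change of each gene, LPS against CON (horizontal axis; points, ±1 standard error from the fit), with the range of values when each of the 6 libraries is left out in turn (grey bands). *DGAT2* lies lowest at -2.75 with a band from -3.05 to -2.51, the *CIDEC* band reaches -3.15, and the bands of *LPIN1*, *DGAT1* and *PNPLA2* cross 0.

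As the plot of fold changes shows, the 10 genes spread from -2.75 to 1.32 around a median of -0.16, where the median of all tested genes was 0.006. Of the 10, 6 had a negative and 4 a positive log2 fold change. When libraries were scaled to total counts in place of TMM, the median of all tested genes moved to -0.12, and no sign among the 10 genes changed. In 2 of the 10 all LPS values lay below all CON values, and in 0 of 10 above. Over all tested genes these shares were 9.80% below and 6.52% above. As *DGAT2* led to the choice of the set, nothing is read from this count.

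With all 6 libraries, edgeR called 0.0548% of the tested genes higher and 0% lower, and none of the 10 genes. At an unadjusted p below 0.05, which 6.18% of tested genes passed as higher and 6.33% as lower, *DGAT2* and *GPAM* were on the lower side and none was on the higher side. DESeq2 called 2.02% higher and 1.15% lower, with *DGAT2* as the only gene of the 10, and limma-voom called 0.0157% higher, 0% lower and none of the 10. When LPS replicate 2 was left out, 3.76% were called higher and 3.45% lower by edgeR, among them *CIDEC*, *DGAT2* and *GPAM*. The rule of choice used this contrast, so these calls describe the fits and are no independent evidence.

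In *DGAT2*, as in *GPAM* and *CIDEC*, LPS replicate 2 was the LPS library nearest to the controls, and the low value of *DGAT2* in every LPS library was fixed by the choice of the set. Relative to the mean log2 level of the CON libraries, *DGAT2* was at -3.36, -2.22 and -2.75 in LPS replicates 1, 2 and 3. *GPAM* was at -1.21, -0.44 and -2.88 and *CIDEC* at -2.29, -0.19 and -2.51. For *LPIN2* the values were 0.63, 0.24 and 1.42. In LPS replicate 2 the median over the 10 genes was 0.069, against -0.529 and -0.388 in LPS replicates 1 and 3, and over all tested genes the 3 medians were -0.007, -0.055 and -0.024. *DGAT2* was the lowest of the 10 in LPS replicates 1 and 2, and *GPAM* was the lowest in LPS replicate 3.

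**Figure D3:**
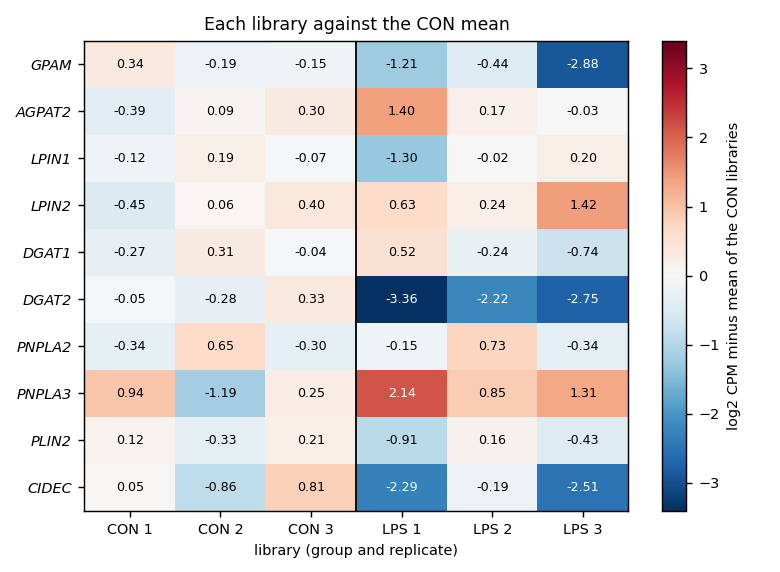
Log2 CPM of each gene (rows) in each library (columns) minus the mean of the 3 CON libraries, printed in each cell and coloured from blue (lower) to red (higher). The *DGAT2* row is at -2.22 or lower in all 3 LPS libraries, whereas in LPS replicate 2 the other 9 genes lie between -0.44 and 0.85.

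Levels of different genes were compared per length, as CPM per kilobase of exon. In the CON group the order was *AGPAT2* (58.1), *PLIN2* (49.1), *PNPLA2* (30.6), *LPIN2* (20.8), *DGAT2* (15.4), *DGAT1* (6.54), *GPAM* (3.76), *CIDEC* (2.57), *LPIN1* (0.829) and *PNPLA3* (0.814). Most neighbours in this order overlapped in range, and only *DGAT2* and *DGAT1*, *DGAT1* and *GPAM*, and *CIDEC* and *LPIN1* were apart. In control liver *DGAT2* was thus the more abundant transcript of the pair that completes triglyceride. In the LPS group the mean was 2.29 for *DGAT2* and 6.18 for *DGAT1*, with ranges apart, and the order of this pair was turned. *AGPAT2* (90.1), *PLIN2* (38.6), *LPIN2* (36.3) and *PNPLA2* (32.5) held the first 4 places. The reads that *DGAT1* may share with *HSF1* bear on its place in both orders.

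A ratio of 2 genes within 1 library does not depend on how libraries are scaled. A set of 11 such ratios was computed from counts per base, of which 5 overlapped between the groups, and those with *DGAT2* restate its chosen difference on that footing. Per base, *DGAT2* over *PLIN2* was 0.280, 0.324 and 0.340 in the CON group and 0.0552, 0.0595 and 0.0617 in the LPS group. This ratio was close to constant within each group, also in LPS replicate 2. *PLIN2* itself ranged from 124 to 259.6 CPM in the LPS group. The other ratios with *DGAT2* varied more within each group. *DGAT2* over *PNPLA2* was 0.643, 0.2745 and 0.8135 in the CON group and 0.0546, 0.0664 and 0.0970 in the LPS group. With 3 libraries per group, nothing is read from the closeness of 1 ratio among 11. *DGAT2* over *DGAT1* was 2.76, 1.56 and 3.06 in the CON group and 0.154, 0.591 and 0.578 in the LPS group, above 1 in every control and below 1 in every LPS library. The exon bases shared with *HSF1* enter the length of *DGAT1* and may enter its counts, so the place of this ratio relative to 1 is uncertain. For *LPIN2* over *LPIN1* the values were 19.4, 22.3 and 33.8 against 96.4, 29.2 and 56.8, and the groups overlapped. They also overlapped for *PNPLA2* over *PNPLA3* (16.6 to 185 in the CON group and 7.99 to 37.5 in the LPS group), for *PLIN2* over *CIDEC* (13.6 to 32.5 and 27.1 to 138) and for *DGAT2* over *GPAM* (3.14 to 5.71 and 0.901 to 4.63).

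In 3 ratios a gene outside the set took part. *GPAT4*, an acyltransferase of the endoplasmic reticulum that does the same first step as *GPAM*, had 149, 196 and 196 CPM in the CON group and 198, 168 and 199 CPM in the LPS group. Its ratio to *GPAM* per base was 8.47, 16.1 and 15.6 in the controls and 33.2, 16.4 and 111 in the LPS libraries, where LPS replicate 2 lay just above the highest control. *PNPLA2* over *G0S2*, its protein inhibitor, was 0.0685, 0.0488 and 0.0460 in the CON group and 0.156, 0.0908 and 0.180 in the LPS group. The ratio separated the groups, while each gene by itself did not. *G0S2* and *GPAT4* were added to the named genes after their values were seen. Among all tested genes taken singly, 6.52% had all LPS values above all CON values and 9.80% had all below. No such share was computed for ratios, so nothing is read from the separation of a ratio in this paragraph. *G0S2* was at 139.6, 389.9 and 214 CPM in the CON group and 70.2, 223 and 53.2 CPM in the LPS group (log2 fold change -1.10, edgeR adjusted p = 0.474). *ABHD5* over *G0S2* overlapped, at 0.0551, 0.0113 and 0.0274 in the CON group and 0.157, 0.0294 and 0.398 in the LPS group.

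**Figure D4:**
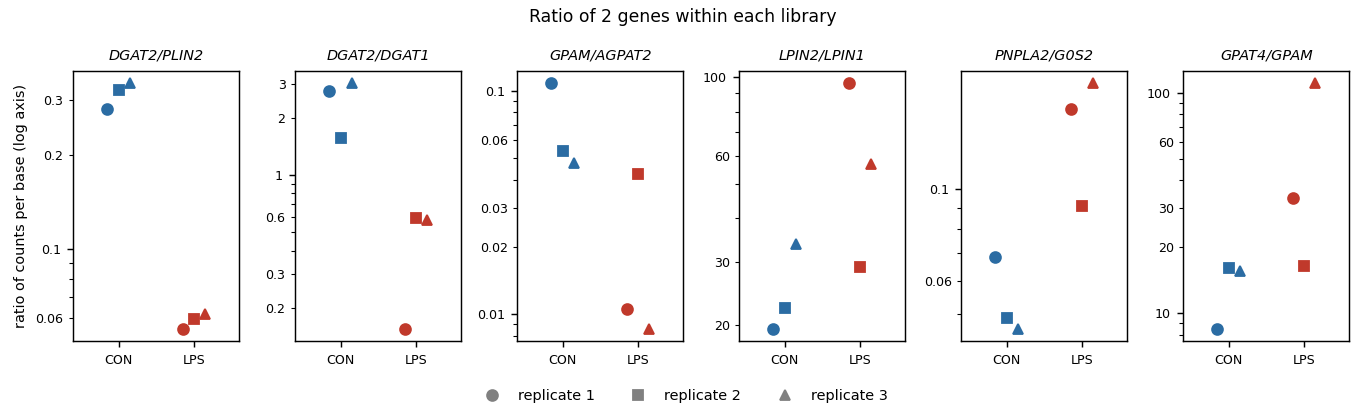
Ratio of 2 genes within each library, from counts per base (vertical axes on a log scale, one per ratio), in the CON (blue) and LPS (red) libraries, with symbols for the replicate number. *DGAT2*/*PLIN2* is at 0.280 to 0.340 in the CON group and 0.0552 to 0.0617 in the LPS group, and *LPIN2*/*LPIN1* overlaps. Of the 11 ratios computed 6 are drawn, and the other 5 include 4 that overlap.

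The surrounding pathway was described with 7 lists of other genes, of which 52 of 72 genes were tested. Only 59 of the 72 had a row under their symbol. Of these 52, 25 had a positive and 27 a negative log2 fold change, with a median of -0.11. edgeR called none of them in either direction. At an unadjusted p below 0.05 there were 3 higher genes (*ABHD5*, *GPAT3* and *SLC27A4*) and 7 lower genes (*ABHD6*, *GPD1*, *GPD1L*, *INSIG2*, *LIPA*, *PPARA* and *TMT1B*), that is 5.77% and 13.5% of the lists beside 6.18% and 6.33% of all tested genes. DESeq2 called *SLC27A4* higher and *INSIG2* and *TMT1B* lower, or 1.92% and 3.85% beside 2.02% and 1.15%. When LPS replicate 2 was left out, edgeR called *ABHD5* and *SLC27A4* higher and 10 genes lower, namely *ACSL1*, *CIDEB*, *G0S2*, *GPD1*, *INSIG2*, *LIPA*, *MOGAT1*, *PPARA*, *SLC27A2* and *TMT1B*. These were 3.70% and 18.5% of the 54 list genes then tested, beside 3.76% and 3.45% of all genes. The lists were chosen with earlier results of these data known. *TMT1B*, among the lower genes each time, was matched to its list only after it appeared among the genes most like *DGAT2*. Nothing is therefore read from these shares.

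**Figure D5:**
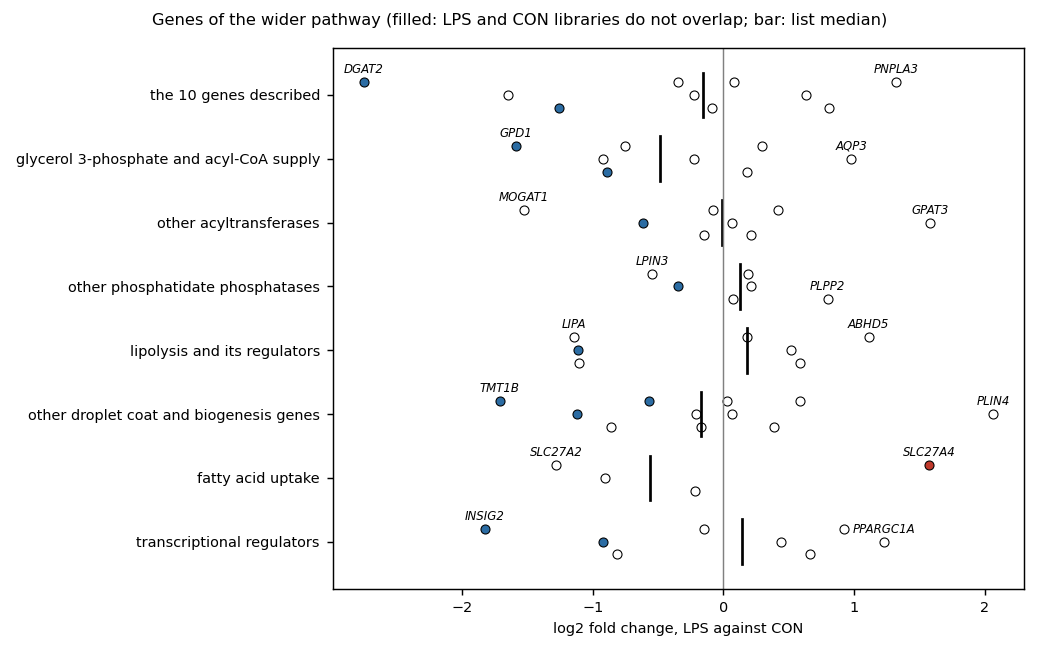
Log2 fold change, LPS against CON (horizontal axis), of each tested gene of the 7 pathway lists and of the 10 genes described. Each circle is 1 gene, filled where LPS and CON libraries do not overlap (blue lower, red higher), the black bar is the list's median and the extreme genes are named. *DGAT2* is the leftmost point and *PLIN4* the rightmost, and the medians lie between -0.56 and 0.18.

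The first list supplies glycerol 3-phosphate and acyl-CoA, and 0 of its 8 tested genes were called in either direction (median -0.49). *GPD1*, which makes glycerol 3-phosphate from a glycolytic intermediate, had 226, 182 and 388 CPM in the CON group and 72.0, 165 and 28.3 CPM in the LPS group. All its LPS libraries lay below the controls, with a log2 fold change of -1.59 (edgeR adjusted p = 0.321). *ACSL1*, the main acyl-CoA synthetase of the list, had -0.92 (adjusted p = 0.476), and *ACSL5* and the glycerol channel gene *AQP3* had 0.29 and 0.98 (adjusted p = 0.834 and 0.612, edgeR).

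Among 8 other acyltransferases 0 were called (median -0.01). The annotated span of 1 of them, *MOGAT1*, lies within that of *ACSL3*, and shared exon bases were checked only for the 10 genes. *MOGAT1*, which acylates monoacylglycerol, had a log2 fold change of -1.52 (edgeR adjusted p = 0.500), and *LCLAT1*, a cardiolipin-remodelling enzyme, one of -0.62 (edgeR adjusted p = 0.486). At the other end *GPAT3* had 1.58 (edgeR adjusted p = 0.367), LPS replicate 3 being at 74.6 CPM and the other LPS libraries at 13.9 to 17.7 CPM, and *AGPAT4* had 0.42 (edgeR adjusted p = 0.755). Of 6 other phosphatidate phosphatase genes 0 were called (median 0.13), from *LPIN3* at -0.55 and *PLPP1* at -0.34 to *CNEP1R1*, a partner of a lipin-activating phosphatase, at 0.21 and *PLPP2* at 0.80 (edgeR adjusted p = 0.758, 0.700, 0.888 and 0.588).

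Lipolysis and its regulators had 7 tested genes, 0 of them called (median 0.18). *ABHD5*, the activator of *PNPLA2*'s product, had 81.8, 46.7 and 62.2 CPM in the CON group and 117, 69.5 and 225 CPM in the LPS group, a log2 fold change of 1.11 (edgeR adjusted p = 0.356). LPS replicate 2 lay among the controls, and without it the log2 fold change was 1.43 (edgeR adjusted p = 0.0498). That library was singled out from these same data, so nothing is read from this p. With LPS replicate 1 or 3 left out instead, edgeR called no gene of the pathway lists. *MGLL*, the monoacylglycerol lipase, had 0.59, while the lysosomal lipase *LIPA* had -1.15 and *ABHD6*, another monoacylglycerol hydrolase, -1.11 (edgeR adjusted p = 0.712, 0.314 and 0.303).

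Of 11 tested genes for other droplet coats and droplet formation 0 were called (median -0.17). *TMT1B*, a methyltransferase that sits on droplets and was formerly named *METTL7B*, had 416, 413 and 562 CPM in the CON group and 117, 150 and 157 CPM in the LPS group. Its groups did not overlap, and its log2 fold change was -1.71 with a standard error of 0.32 (edgeR adjusted p = 0.0934). *PLIN1* had -1.12 and *FITM2*, which promotes droplet budding, 0.59 (edgeR adjusted p = 0.403 and 0.613). *PLIN4* had 2.06 (edgeR adjusted p = 0.492) on values that ranged from 1.16 to 80.7 CPM within the LPS group.

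Fatty acid uptake had 4 tested genes, 0 of them called (median -0.56). *CD36* and *FABP1* had no row under their symbol and *LPL* did not pass the filter, so the median leaves them out. *SLC27A4*, a fatty acid transport protein, had 26.3, 28.0 and 40.9 CPM in the CON group and 173, 45.0 and 66.3 CPM in the LPS group, and all LPS libraries were above the controls (log2 fold change 1.57, edgeR adjusted p = 0.253). *SLC27A2*, another member of that family, had -1.28 (edgeR adjusted p = 0.418), with LPS replicate 2 among the controls. Without that library it had -2.42 (edgeR adjusted p = 0.00525). The library was singled out from these same data, so nothing is read from the second p. The lipoprotein receptor gene *VLDLR* had -0.90 (edgeR adjusted p = 0.564).

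The 8 tested transcriptional regulators had a median of 0.15, and 0 were called. *INSIG2*, which retains the sterol sensor in the endoplasmic reticulum, had 52.9, 25.3 and 25.7 CPM in the CON group and 3.49, 17.3 and 8.33 CPM in the LPS group (log2 fold change -1.83, edgeR adjusted p = 0.236). *PPARA*, the fatty acid-sensing receptor of liver, had 79.6, 67.0 and 75.8 CPM against 32.3, 57.8 and 27.8 CPM (log2 fold change -0.92, edgeR adjusted p = 0.329). In both genes the groups did not overlap. *PPARGC1A* and *INSIG1* had 1.23 and 0.92 (edgeR adjusted p = 0.431 and 0.629), each with LPS replicate 3 far above the other libraries' values.

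The 5 genes whose log2 levels followed *DGAT2* most closely over the 6 libraries were *ACAD10* (Pearson's r = 0.996), *ALDH5A1* (0.996), *ABCC3* (0.993), *ASF1B* (0.993) and *TMT1B* (0.988). *ALDH5A1*, a mitochondrial dehydrogenase gene, had 106, 93.4 and 112 CPM in the CON group and 23.3, 44.5 and 32.7 CPM in the LPS group, and *ABCC3*, an exporter of organic anions, had 64.3, 56.4 and 71.6 CPM against 19.2, 27.8 and 27.7 CPM. The 6 points share their libraries and scaling and form the 2 groups, so these values rank likeness and nothing more. Within the set the r with *DGAT2* was 0.82 for *CIDEC*, 0.73 for *GPAM*, 0.69 for *PLIN2*, 0.51 for *LPIN1* and 0.027 for *DGAT1*, and it was negative for *LPIN2*, *AGPAT2* and *PNPLA3* (-0.66, -0.58 and -0.72) and near 0 for *PNPLA2* (-0.028).

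Markers of the cells in the tissue are set beside these values. Of the 12 hepatocyte markers 5 had a positive and 7 a negative log2 fold change (median -0.11), and *ALB* was at -0.76 (edgeR adjusted p = 0.461). *ASGR1*, a hepatocyte receptor gene, had 264, 344 and 289 CPM in the CON group and 161, 175 and 103 CPM in the LPS group (log2 fold change -1.03, edgeR adjusted p = 0.257). In the other direction *FGB*, an acute-phase fibrinogen chain gene, had 12715, 8098 and 9054 CPM against 21935, 14561 and 44960 CPM (log2 fold change 1.45, edgeR adjusted p = 0.257), and *HNF4A* was at 0.61 (edgeR adjusted p = 0.637). The summed neutrophil markers were at 22.6 to 34.2 CPM in the CON group and 88.7 to 326 CPM in the LPS group, with positive log2 fold changes in 6 of 7 tested genes, among them *CSF3R* (log2 fold change 2.91, edgeR adjusted p = 0.0668). *S100A8* was the 1 marker of this list that edgeR called (log2 fold change 5.34, adjusted p = 0.0371). All 10 tested Kupffer cell or macrophage markers had negative values (median -0.48), with *CD163* at -0.24, and their sums were 1962 to 3218 and 1366 to 2281 CPM. The 9 stellate cell markers had a median of -0.27 (*LRAT* -0.11, sums of 958 to 1397 and 652 to 1466 CPM), and the 6 endothelial markers one of -0.62 (*PECAM1* -0.22, sums of 200.4 to 409.6 and 128 to 243 CPM). *CD163*, *LRAT* and *PECAM1* had edgeR adjusted p of 0.827, 0.946 and 0.803.

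Adipocytes express many of the 10 genes, so their markers were counted as well. *ADIPOQ* and *LEP*, which define the cell type, had 0 counts in 5 of the 6 libraries and 2 counts each in LPS replicate 3. The summed adipocyte list was at 14.8 to 28.5 CPM in the CON group and 4.64 to 92.6 CPM in the LPS group, and *PLIN4* made up most of the highest value. The part of the neutrophil and hepatocyte markers in the *DGAT2* values was not tested.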

How the data were processed

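The authors deposited raw counts of reads per gene for 31908 Ensembl pig genes, with exon coordinates and lengths. The submitters' processing notes name cutadapt 1.9.3, HISAT2 and the builds galGal6 and hg38, neither of which is a pig build. The sources used here do not give the counting program, its strand setting, its handling of reads shared by genes or the pig build. The labels list 2 sequencing entries for each of CON replicates 1 and 2, which have 1 column each, and 0 sample columns were unmapped. The m6A immunoprecipitation libraries were not analysed here. Whether the 3 libraries of a group came from 3 animals is not stated in the labels, so p-values measure the spread between these libraries.

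Symbols came from a table pairing Ensembl identifiers with names. The test was edgeR 4.0.16 in R 4.3.3 (filterByExpr with a minimum count of 10, TMM, robust quasi-likelihood fit), adjusting over all 12774 tested genes. The procedure was tested on simulated data. A standard error is the log2 fold change over the root of its F statistic. log2 CPM values have a prior count of 2. Alternatives were RLE factors, library totals, no filter, DESeq2 1.42.0, a minimum of 10 counts in each library, voom (limma 3.58.1), a replicate block, no fold threshold and leaving out each library.

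The 10 genes and all lists were chosen with earlier results of these data known. Named were the 10 genes, from each pathway list every called gene or else the 2 most positive and 2 most negative log2 fold changes, the 5 genes most like *DGAT2* among those with a symbol, and 1 marker per cell type. *HSF1*, *MYOM1*, *SSNA1*, the neighbours, *GPAT4*, *G0S2*, *ACSL3*, *ASGR1*, *FGB*, *HNF4A*, *SERPINA1*, *S100A8*, *LEP* and the genes called by an alternative were added after their values were seen. *METTL7B* was matched to its newer symbol *TMT1B* after *TMT1B* appeared among those 5 genes.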

Additional observations from a re-analysis of the deposited data

How the results depend on the processing

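None of the 10 genes was called by edgeR with the filter, TMM and all libraries. *DGAT2* alone was called (1 lower) with RLE factors, library totals, DESeq2, a replicate block or without LPS replicate 3, *DGAT2* and *GPAM* (2 lower) with no filter on low counts, and *CIDEC*, *DGAT2* and *GPAM* without LPS replicate 2. Leaving out a library gave 0 to 3 lower genes of the 10, and 0 without LPS replicate 1 or any CON library. None was called higher under any of these alternatives. Lower calls over all tested genes were 1 of 12774 with RLE factors, 1 of 12774 with library totals and 146 of 12749 with DESeq2. They were 9 of 12774 with a replicate block and 19 of 12593 without LPS replicate 3. With no filter they were 349 of 23529, and without LPS replicate 2 they were 470 of 13632. The rule of choice used this contrast, so nothing is read from the calls of the 10 genes.

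The 7 higher and 0 lower genes among all tested became 8 and 1 with RLE factors, 11 and 1 with library totals, 536 and 349 with no filter, 0 and 0 with at least 10 counts in every library, 258 and 146 with DESeq2, 2 and 0 with limma-voom, and 0 to 512 and 0 to 470 with a library left out. Of 59 pathway genes tested with no filter, 3 were called higher and 5 lower, where all genes tested numbered 23529. Of 52 tested with DESeq2, 1 was higher and 2 were lower. With a library left out, 0 to 2 were higher and 0 to 10 lower. The lists were chosen with earlier results known, so nothing is read from these counts. The cause of these shifts was not tested.

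With the replicate number as a replicate block, 42 genes were called higher, 9 lower and 1 of the 10 genes, *DGAT2*. Deviations from the group means correlated at r = -0.239, 0.219 and 0.029 in same-numbered libraries, and at -0.251 to 0.220 in the others. With 3 libraries per group these values cannot decide whether the numbers mark a pairing. Signs of the 10 genes' log2 fold changes held under all alternatives with all 6 libraries, and with a library left out they turned for *LPIN1*, *DGAT1* and *PNPLA2*. *CIDEC* moved to -3.15 without LPS replicate 2, and *CIDEC* and *PNPLA3* were not tested with at least 10 counts in every library. All 10 ranks of levels per length were the same with library totals in both groups, and CPM not divided by length gives no order between genes, so that setting was not run. Depth limits *CIDEC*, *PNPLA3* and *LPIN1* most, with single libraries of 2, 4 and 17 counts.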
